A study of Mus musculus with 52 samples.

Results

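Expression of 10 genes of BMP and TGF-beta signaling was followed in mouse endothelial cells (ECs) across tissues, cell fractions and genotypes. The genes were chosen by name as endothelial genes of these pathways, with earlier results of these data known. They are the ligand Bmp6, the receptors Acvrl1, Bmpr2 and Tgfbr2, the co-receptor Eng, the signal transducer Smad1, the inhibitory SMADs Smad6 and Smad7, and the target genes Id1 and Id3. They make up 10 of the 55536 genes of the annotation, and for each gene the estimated reads and the TPM (abundance scaled by transcript length and by library) of all its transcripts were summed in each of 40 RNA libraries. All 10 passed the filter on low counts in every fit.

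BMPs and TGF-betas are secreted ligands that assemble complexes of type I and type II receptor kinases, which phosphorylate SMAD transcription factors. In ECs the type I receptor ALK1 (Acvrl1) and its co-receptor endoglin (Eng) transmit signals of the BMP family through Smad1 and its close relatives, whereas Tgfbr2 is the type II receptor for TGF-beta, and loss of ACVRL1 or ENG in humans causes hereditary hemorrhagic telangiectasia. The Id genes are classical BMP-SMAD targets, and Smad6 and Smad7 are themselves induced by the pathway and restrain it.

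The study asked how stabilizing beta-catenin, the transducer of canonical Wnt signaling, changes ECs of vascular beds with and without a blood-brain barrier (BBB). GFP-positive cells (ECs) and GFP-negative cells were sorted from the cerebellum, whose vessels have a BBB, and from the anterior and posterior pituitary, whose vessels are permeable. WT mice for sorting carried Tie2-GFP, a reporter driven by the endothelial Tie2 (Tek) promoter. Their beta-catenin stabilized counterparts carried Tie2-GFP; Pdgfb-CreER; BcatEx3fl, in which an inducible Cre active in ECs removes exon 3 of 1 Ctnnb1 allele, and had received 100 ug of 4-hydroxytamoxifen (4HT) at postnatal day 10. The methods give no Cre and no 4HT for the sorted WT mice, so that in the sorted libraries Cre, 4HT and the stabilized allele cannot be told apart. Ribosome-bound and input RNA came from the cortex and the choroid plexus of RiboTag; Pdgfb-CreER mice (WT) and of RiboTag; Pdgfb-CreER; BcatEx3fl mice (stabilized), in which Cre adds an epitope tag to a ribosomal protein so that ribosomes of recombined cells can be pulled down, and both of these genotypes had been given 4HT. All mice were male. The pituitaries of 20 to 30 mice aged postnatal day 30 to 90 were pooled for each sorted replicate, RiboTag mice were 6 to 8 weeks old, and the choroid plexi of 3 to 4 animals made up a RiboTag sample. Excision by Pdgfb-CreER was mosaic, and each group had 2 replicates, so a p-value here measures the spread between 2 pools or animals per group. ATAC-seq of GFP-positive cells, which maps accessible chromatin, gave 12 further libraries of the 3 sorted tissues and both genotypes.

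The labels of 1 library conflict. Replicate 2 of the stabilized anterior pituitary GFP-positive cells is anterior by its title and source name and posterior by its tissue entry, and was taken as anterior. The pituitary hormone genes summed to 4050 CPM (counts scaled by library size) in it, beside 3200 CPM in the other stabilized anterior library and 320 and 756 CPM in the stabilized posterior libraries. None of the 10 genes was called between stabilized and WT anterior pituitary ECs with it or without it (edgeR), and the one difference in response that was called without it, of Bmp6, is given with the interaction tests.

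The sorted libraries held 12157485 to 37529274 estimated reads and the RiboTag libraries 6409013 to 21399125. Levels between libraries are given as CPM after TMM scaling, and a gene was called when edgeR's quasi-likelihood test gave an adjusted p under 0.05 and at least a 2-fold difference. Where groups are said not to overlap, this describes their values and is no test, and the share of all genes without overlap is not given. Reads summed over Ctnnb1 do not resolve exon 3, so that gene checks no label. Axin2, a direct target of beta-catenin, was higher in the stabilized than in the WT libraries of all 5 EC sources without overlap, from 89.3 and 101 to 309 and 217 CPM in the cerebellum, from 9.4 and 0.157 to 25.8 and 57.6 CPM in the anterior pituitary, from 2.06 and 1.4 to 78.3 and 108 CPM in the posterior pituitary, from 24 and 19.4 to 139 and 135 CPM in cortex bound RNA, and from 72.2 and 51.2 to 124 and 118 CPM in choroid plexus bound RNA. None of 10 endothelial markers (such as Pecam1 and Cdh5) was at 0 in any GFP-positive or bound library. Their sum was 5180 to 13100 CPM in GFP-positive cells, 17.0 to 94.1 CPM in GFP-negative cells and 720 to 2830 CPM in bound RNA.

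4 accessible regions near these genes are shown as sequence, and were picked because they hold the motif letters described below. Each is the summit of a peak with 100 bases on either side, in GRCm38.p6, plus strand, from RefSeq's genome. The first lies upstream of Id1 (summit at −1057 bp from the gene start) and was accessible in all 3 tissues and both genotypes; capitals mark the letters GGCGCC and a longer element, GGCGNC and GTCT spaced by 5 bases, GC-rich sequences bound by BMP-activated SMADs. The Eng region lies in an intron and was accessible in stabilized but not WT ECs of the cerebellum and the posterior pituitary; capitals mark GGCGCC. The intronic region of Tgfbr2 and a region outside Smad1, 97740 bp from its start and nearest to the start of Mmaa, were accessible in stabilized but not WT posterior pituitary ECs. Capitals there mark TTCAAAG and ATCAAAG, the letters recognised by TCF/LEF factors, the DNA-binding partners of beta-catenin. Most peaks gained near these genes held no such letters, and their share was below that of all gained peaks, as given with the ATAC-seq results.
Id1, chr2:152735094-152735294: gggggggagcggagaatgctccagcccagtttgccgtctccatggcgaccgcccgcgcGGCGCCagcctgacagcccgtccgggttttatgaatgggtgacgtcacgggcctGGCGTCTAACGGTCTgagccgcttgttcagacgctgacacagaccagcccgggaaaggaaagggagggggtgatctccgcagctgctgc
Eng, chr2:32667950-32668150: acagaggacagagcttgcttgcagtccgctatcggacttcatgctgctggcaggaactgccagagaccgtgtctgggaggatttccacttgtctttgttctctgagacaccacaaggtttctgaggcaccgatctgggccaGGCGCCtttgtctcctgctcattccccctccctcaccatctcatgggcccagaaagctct
Tgfbr2, chr9:116145414-116145614: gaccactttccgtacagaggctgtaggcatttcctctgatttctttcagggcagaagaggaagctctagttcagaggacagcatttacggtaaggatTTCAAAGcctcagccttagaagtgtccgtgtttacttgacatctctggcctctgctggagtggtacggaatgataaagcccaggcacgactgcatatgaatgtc
Smad1, chr8:79301678-79301878: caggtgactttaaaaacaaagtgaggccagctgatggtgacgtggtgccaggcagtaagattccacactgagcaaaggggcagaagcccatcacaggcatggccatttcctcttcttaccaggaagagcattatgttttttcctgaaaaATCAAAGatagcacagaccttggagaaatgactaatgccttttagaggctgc

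Most of the genes were EC-enriched in all 3 sorted tissues. They were picked as endothelial genes, so the counts here describe the list and are no test of it. Called higher in GFP-positive than in GFP-negative WT cells were 6 of 10 in the cerebellum, 8 of 10 in the anterior pituitary and 9 of 10 in the posterior pituitary, where 4.46%, 5.46% and 7.07% of all genes tested were called higher. Lower in GFP-positive cells was 1 of 10, Bmp6 in the cerebellum, where 6.89% of all genes were called lower; in the anterior and posterior pituitary 0 of 10 were lower, against 5.87% and 7.45% of all genes. The median log2 difference of the 10 genes was 3.14, 3.29 and 4.97 in the 3 tissues, and that of all genes −0.12, −0.03 and 0.0. Genes with a few reads in the GFP-negative group lie above these medians at any fold, so the medians do not rest on their fitted values.

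Acvrl1, which encodes ALK1, was far higher in GFP-positive than in GFP-negative cells. On the scale of all 24 sorted libraries it was at 266.5 and 366 CPM in WT cerebellum ECs and at 0.991 and 8.26 CPM in the GFP-negative cells (log2 difference 6.10 ± 1.06 (SE), edgeR adjusted p = 0.00082). In the pituitary GFP-negative libraries it had 0 and 3 reads (anterior) and 8 and 4 reads (posterior), beside 57.6 and 97.7 CPM in anterior and 297 and 335 CPM in posterior GFP-positive cells. Eng was at 597 and 1067 CPM in cerebellum ECs and 7.99 and 10.8 CPM in the GFP-negative cells (6.47 ± 1.36, edgeR adjusted p = 0.0036), and had 5 and 4 reads in the posterior pituitary GFP-negative libraries. In the anterior pituitary GFP-negative cells Eng had 1 and 182 reads, so those libraries differed from each other, and both were far below the 515 and 576 CPM of the GFP-positive cells. Fitted differences against groups of a few reads are not bounds and are left out for that reason.

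The type II receptors were less restricted. Bmpr2 was at 2085 and 1929 CPM in cerebellum ECs and at 325 and 314 CPM in the GFP-negative cells (log2 difference 2.65 ± 0.29, edgeR adjusted p = 9.3e-06), and the difference was 2.92 ± 0.29 in the anterior and 4.28 ± 0.31 in the posterior pituitary (edgeR adjusted p = 4.1e-06 and 7.8e-08). Tgfbr2 differed by 3.65 ± 0.88, 3.67 ± 0.88 and 5.66 ± 0.97 in the same order (edgeR adjusted p = 0.0096, 0.0096 and 0.00045). Its posterior pituitary value was 4.94 to 8.12 when 1 library was left out. GFP-negative cells held Bmpr2 too, at 81.6 CPM or more in each of the 6 WT GFP-negative libraries.

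The BMP targets were likewise higher in the EC fraction. Id1, a repressor of basic helix-loop-helix factors, was at 222 and 153 CPM in cerebellum ECs against 4.80 and 7.88 CPM in GFP-negative cells (log2 difference 4.88 ± 0.93, edgeR adjusted p = 0.0017), and had 2 and 3 reads in the posterior pituitary GFP-negative libraries, where ECs had 169 and 222 CPM. Id3, its paralog, was at 618 and 471 against 93.4 and 67.3 CPM in the cerebellum (2.76 ± 0.53, edgeR adjusted p = 0.0017), and its difference was 4.10 ± 0.56 and 6.34 ± 0.62 in the anterior and posterior pituitary (edgeR adjusted p = 8e-05 and 1.6e-06). The posterior value of Id3 was 5.76 to 7.96 when 1 library was left out.

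The SMADs were less clearly EC-enriched. Smad1 was at 67.9 and 69.4 CPM in cerebellum ECs and 62.9 and 34.3 CPM in GFP-negative cells (log2 difference 0.50 ± 0.57, edgeR adjusted p = 0.68). In the anterior and posterior pituitary its differences were 1.95 ± 0.59 and 2.11 ± 0.59 (edgeR adjusted p = 0.036 and 0.020). Smad7 differed by 1.37 ± 0.49, 1.74 ± 0.49 and 2.81 ± 0.51 in the cerebellum, anterior and posterior pituitary (edgeR adjusted p = 0.082, 0.026 and 0.00079). In the cerebellum Smad7 was called by DESeq2 (1.35, adjusted p 0.0094) and in an edgeR fit of the 2 groups alone (1.5, 0.037). Smad6 was not called in any tissue (3.52 ± 1.55, 0.61 ± 1.41 and 4.10 ± 1.59, edgeR adjusted p = 0.18, 0.91 and 0.097). It was called in the posterior pituitary by DESeq2 (4.10, adjusted p 0.0064), without the count filter (4.13, 0.036), with the length offset (7.01, 0.02) and without GFP-negative replicate 1 (12.98, 0.002), and in the cerebellum by DESeq2 (3.50, 0.029) and in a fit of the 2 groups alone (3.65, 0.016). The pituitary calls on Smad1 and the anterior pituitary call on Smad7 were lost when single libraries were left out. For Smad7 these were anterior GFP-negative replicate 1 (1.49) and GFP-positive replicates 1 and 2 (1.92 and 1.84). For Smad1 they were anterior GFP-negative replicates 1 and 2 (1.85 and 2.37), anterior GFP-positive replicate 2 (1.81), posterior GFP-negative replicate 2 (1.72) and posterior GFP-positive replicate 1 (1.59).

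Bmp6, a ligand that ECs of other organs also secrete, changed sides between tissues. In the cerebellum it was at 1.07 and 6.19 CPM in ECs and at 66.6 and 57.8 CPM in GFP-negative cells, so that ECs were lower (−4.10 ± 0.96, edgeR adjusted p = 0.0078; −3.22 and 0.08 without GFP-positive replicate 1). In the posterior pituitary ECs had 170.9 and 135.6 CPM and GFP-negative cells 33.8 and 8.61 CPM, so that ECs were higher (2.85 ± 0.90, edgeR adjusted p = 0.040). The latter call was lost without GFP-negative replicate 2 (2.3, adjusted p 0.19), GFP-positive replicate 1 (2.80, 0.066) or GFP-positive replicate 2 (3.04, 0.051). In the anterior pituitary ECs, at 16.3 and 21.7 CPM, lay below GFP-negative cells, at 26.5 and 36.9 CPM, and the difference did not pass the test (−0.74 ± 0.85, edgeR adjusted p = 0.67).

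**Figure D1:**
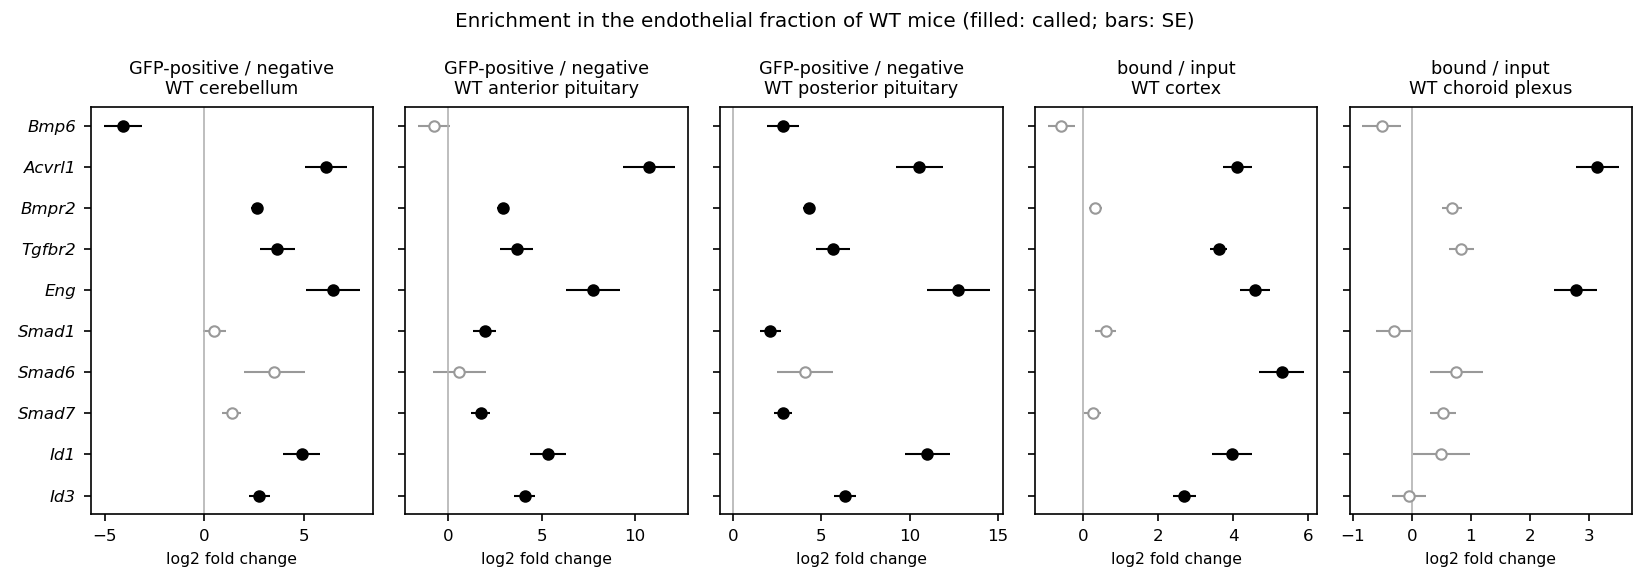
Log2 difference between GFP-positive and GFP-negative WT cells (3 sorted tissues) and between bound and input WT RNA (cortex, choroid plexus) for the 10 genes, with bars of 1 SE; filled points were called. Acvrl1, Eng, Bmpr2, Tgfbr2, Id1 and Id3 lie right of 0 and are filled in the 3 sorted tissues, whereas Bmp6 lies left of 0 in the cerebellum and right of 0 in the posterior pituitary.

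In RiboTag RNA the EC genes were enriched most in the cortex. Called higher in bound than in input RNA were 6 of 10 genes in the cortex and 2 of 10 in the choroid plexus, where 7.46% and 8.67% of all genes were called higher, and 0 of 10 were called lower, against 4.18% and 6.64%. Without WT cortex bound replicate 2, Smad1 was called higher (1.13, adjusted p 0.035) and Bmp6 lower (−1.09, 0.036) in the cortex. In the cortex Acvrl1 was at 86.9 and 42.7 CPM in bound RNA against 4.80 and 2.69 CPM in input (4.11 ± 0.39, edgeR adjusted p = 9.8e-06). Eng was at 135 and 88.6 against 6.77 and 2.59 CPM, Tgfbr2 at 179 and 129 against 11.9 and 13.15 CPM, and Id3 at 154 and 73.2 against 15.8 and 19.3 CPM. Id1 and Smad6 were the other 2 genes called, and Smad6 rested on 1 and 8 input reads. Bmpr2, a receptor that neural cells also express, was at 725 and 653 CPM in cortex bound RNA and 492.5 and 605 CPM in input (0.33, edgeR adjusted p = 0.21).

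The choroid plexus pull-down separated the genes less. Acvrl1 was at 75.0 and 113 CPM in bound RNA against 9.50 and 11.6 CPM in input (3.15 ± 0.37, edgeR adjusted p = 9.1e-05) and Eng at 238 and 258 against 37.0 and 35.0 CPM (2.78 ± 0.36, edgeR adjusted p = 0.00015). Tgfbr2 and Bmpr2 were higher by less than 2-fold (0.84 ± 0.21 and 0.68 ± 0.17, edgeR adjusted p = 0.012 and 0.014). Bmp6 was no higher in bound RNA, at 151.7 and 127.8 CPM, than in input, at 189.6 and 209 CPM (−0.51 ± 0.33, edgeR adjusted p = 0.32), so choroid plexus Bmp6 below is a level in bound RNA and not in ECs alone. 5 markers of choroid plexus epithelium summed to 37600 and 38100 CPM in the WT choroid plexus bound libraries. In both tissues bound RNA also held more of the microglial markers than input, with 8 of 8 called higher in the cortex and 7 of 8 in the choroid plexus.

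Genes were ordered within a group by TPM, which corrects for the effective length that the quantification assigned. Id3 and Eng took the first 2 places in WT ECs of each sorted tissue. In WT cerebellum ECs the mean TPM (n = 2) ran from Id3 at 369.1 and Eng at 267.5 through Id1 at 211.4, Bmpr2 at 167.1 and Acvrl1 at 120.1 to Tgfbr2 at 33.41, Smad1 at 28.84, Smad7 at 9.949, Smad6 at 5.569 and Bmp6 at 0.6671. In WT posterior pituitary ECs Eng led at 797.6 TPM and Id3 followed at 507.0, and Bmp6, at 113.6 and 27.63 TPM, was not separated from Tgfbr2, at 41.27 and 46.27. In WT anterior pituitary ECs the order opened with Id3 at 282.6 and Eng at 171.0 and Smad1 was the third at 78.45, close to Bmpr2 at 76.29 and Id1 at 73.14. In cortex bound RNA Id1, Bmpr2 and Id3 stood at 127.3, 111.3 and 106.8 TPM, and in choroid plexus bound RNA Eng, Id1, Bmp6 and Id3 stood within 30.35 to 33.36 TPM, neighbours that replicates did not separate. TPM was not compared between libraries, because the 20 most abundant genes took 36.2% to 83.1% of it. Effective lengths varied between libraries, from 2.19-fold for Tgfbr2 to 14.3-fold for Eng, 16.1-fold for Acvrl1 and 99.1-fold for Smad6, which moves the order within a group too.

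Among WT ECs the anterior pituitary stood apart. Acvrl1, Bmpr2 and Id1 were called higher in the cerebellum than in the anterior pituitary and none was called lower (3 of 10, with 5.26% of 17915 genes called in either direction). Bmp6 alone differed between cerebellum and posterior pituitary, where it was lower in the cerebellum (1 of 10, with 4.40% of all genes), and Acvrl1 alone between the pituitary lobes, where it was lower in the anterior lobe (1 of 10, with 0.994%). The median log2 difference of the 10 genes was 0.74, −0.13 and −1.22 in the 3 comparisons, against 0.0 for all genes in each. DESeq2 called 5, 1 and 8 of the 10 genes in these comparisons. Over all genes it called 2006, 1926 and 1281, where edgeR called 942, 788 and 178. Markers of other cells differed along with them: mural markers were called higher in the cerebellum than in the anterior (5 of 10, median 4.72) and posterior pituitary (5 of 10, 3.49), pituitary endocrine markers lower (5 of 7 and 2 of 7), and endothelial markers lower (1 of 10, median −0.41, and 5 of 10, −0.87). Between the lobes 3 of 7 endocrine markers were higher in the anterior lobe, and 0 endothelial markers were called (median −0.29). Their part in the values of the 10 genes was not tested.

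**Figure D2:**
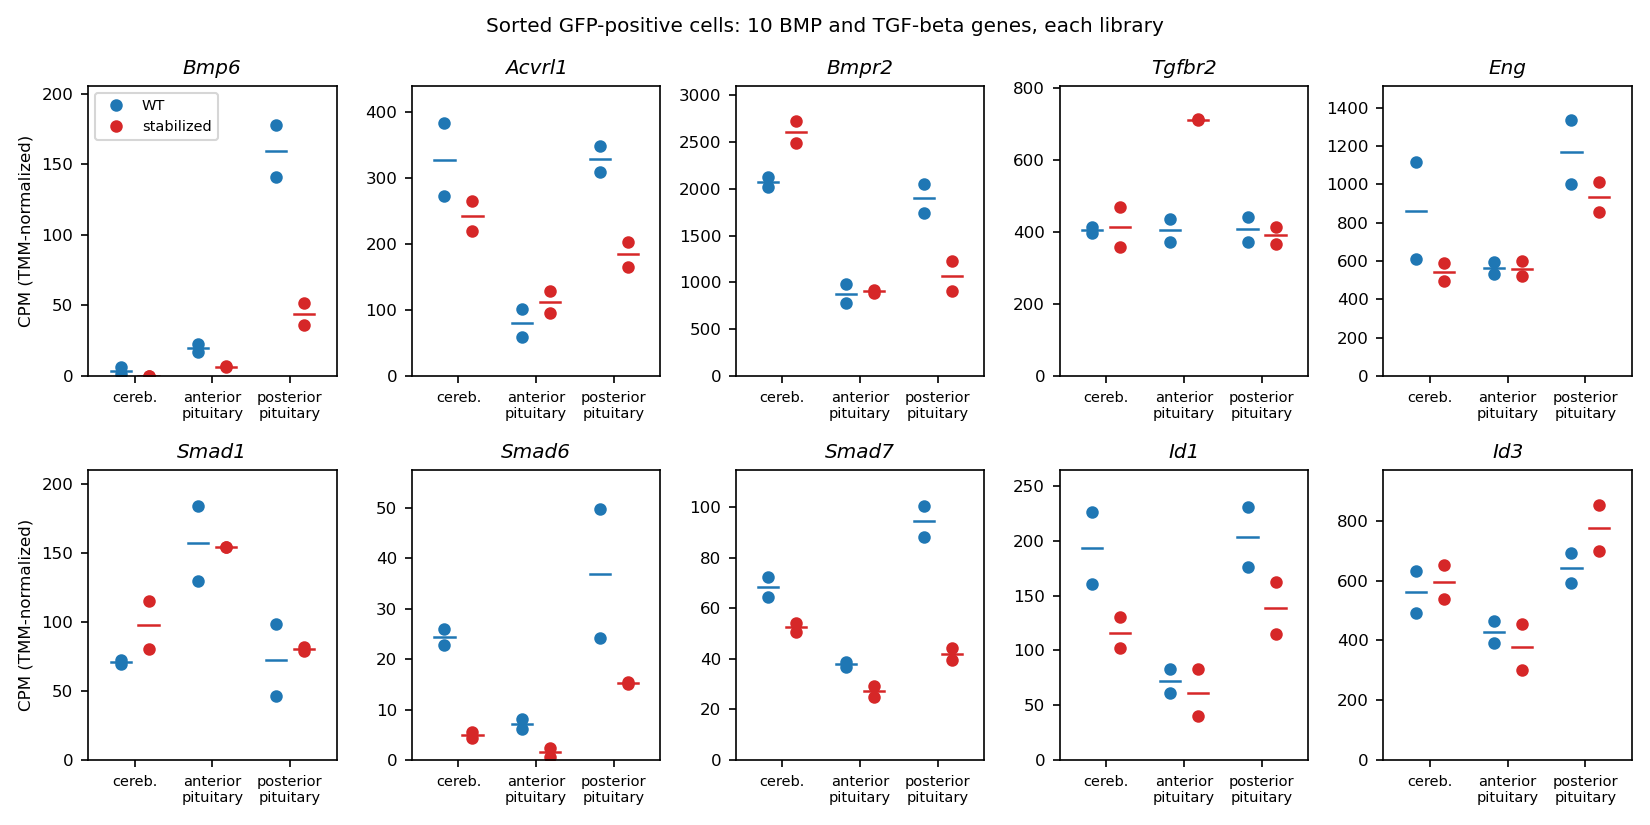
CPM of each of the 10 genes in every GFP-positive library, by tissue and genotype; each point is a library, the short lines are group means (n = 2), and each panel has its own linear axis from 0. Acvrl1 and Bmpr2 are lowest in the anterior pituitary, and Bmp6 runs from 178 CPM in a WT posterior pituitary library to 0 in a stabilized cerebellum library.

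Bmp6 had the widest range of the 10 genes. In WT ECs it was at 1.09 and 6.48 CPM in the cerebellum, 16.9 and 22.4 CPM in the anterior pituitary and 178 and 141 CPM in the posterior pituitary. The 3 tissues did not overlap, and the posterior pituitary exceeded the cerebellum by 42.3-fold (log2 difference of the cerebellum −5.40 ± 0.77, edgeR adjusted p = 0.00093; −7.19 to −4.63 without 1 library). The anterior pituitary lay between, with −2.38 ± 0.67 for cerebellum against anterior (edgeR adjusted p = 0.065; −4.17 and 0.00058 without WT cerebellum replicate 2, and −2.51 and 0.039 with the replicate block) and −3.02 ± 0.68 for anterior against posterior (edgeR adjusted p = 0.064; −2.83 and 0.049 without WT posterior replicate 1, and −3.08 and 0.036 with the block). DESeq2 called both (adjusted p 0.0051 and 0.00044). The bound RNA of the choroid plexus, another permeable vascular bed, held 174 and 143 CPM against 3.50 and 8.57 CPM in the cortex, 26.0-fold more (cortex minus choroid plexus −4.70 ± 0.46, edgeR adjusted p = 0.00011), in bound libraries where Bmp6 was no higher than in input.

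With beta-catenin stabilized, Bmp6 fell in cerebellum ECs, and its fitted difference was below 0 in the other 4 EC sources without passing the test. In the cerebellum it went from 38 and 168 reads in WT to 2 and 0 reads, that is from 1.09 and 6.48 to 0.0700 and 0 CPM (fitted log2 difference −6.43 ± 0.99, edgeR adjusted p = 0.0098). The ratio of summed reads, scaled by library size, was 85.6, with an exact 95% interval of 23.4 to 711 that covers counting error only. It was the only 1 of 10 genes called there, and 0.0670% of genes were called higher and 0.581% lower. The call held without each of the 4 libraries in turn, with fitted values of −9.63 to −4.65, but was lost when the 2 cerebellum groups were fitted alone (−6.51 ± 2.71, adjusted p 0.49) and with an offset for effective length (−6.27 ± 1.28, 0.055). In the anterior pituitary Bmp6 went from 16.9 and 22.4 to 6.80 and 6.32 CPM (−1.58 ± 0.65, edgeR adjusted p = 0.66), in the posterior pituitary from 178 and 141 to 35.9 and 51.6 CPM (−1.86 ± 0.65, 0.22) and in choroid plexus bound RNA from 174 and 143 to 77.4 and 80.8 CPM (−1.0 ± 0.39, 0.30). The genotypes did not overlap in any of these 3 sources, but none passed the test (the posterior pituitary did without the count filter, −1.84 and adjusted p 0.0093). In cortex bound RNA Bmp6 was at 3.50 and 8.57 CPM in WT and 5.24 and 3.16 CPM in stabilized mice, which overlapped (−0.55 ± 0.43, edgeR adjusted p = 0.5).

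In these bulk samples fewer cells of a type and less RNA per cell cannot be told apart. GFP-negative cerebellum cells held more Bmp6 than ECs did, and the stabilized cerebellum EC libraries held less of several non-endothelial markers: the 10 mural markers summed to 3790 and 3540 CPM in WT and 2680 and 2370 CPM in stabilized ECs, the 5 fibroblast markers to 25.1 and 33.0 and to 3.36 and 0.757 CPM, and the 5 choroid plexus epithelium markers to 0.701 and 95.4 and to 0.617 and 0.089 CPM, with 4 of those 5 at 0 in both stabilized libraries and in WT replicate 1. Cerebellum ECs had 15644 and 16904 genes with a read in the WT libraries and 14085 and 13032 in the stabilized libraries. The part of these shifts in the Bmp6 result was not tested. In choroid plexus bound RNA the epithelial markers moved along with Bmp6, from 37600 and 38100 to 24700 and 21500 CPM (median log2 difference −0.94, 0 of 5 called), and in the matching input Bmp6 was at 181 and 192 CPM in WT and 185.5 and 182 CPM in stabilized tissue.

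Acvrl1 was the receptor that separated the anterior pituitary most clearly. It was at 272 and 383 CPM in WT cerebellum ECs, 59.7 and 101 CPM in the anterior and 309 and 348 CPM in the posterior pituitary. The anterior libraries lay below all others, and the cerebellum exceeded them 4.08-fold (2.03 ± 0.32, edgeR adjusted p = 0.0015), as did the posterior pituitary (anterior minus posterior −2.03 ± 0.32, edgeR adjusted p = 0.0073; −1.70 and 0.052 without WT anterior replicate 1). Cerebellum and posterior pituitary differed by −0.01 ± 0.30, an interval of 2 SE from −0.61 to 0.59. Both Acvrl1 calls against the anterior pituitary were lost with an offset for effective length (1.63, adjusted p 0.054, and −1.87, 0.082), a quantity that varied 16.1-fold for this gene.

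Bmpr2, the type II receptor for BMPs, was likewise lowest in the anterior pituitary. It was at 2127 and 2020 CPM in the cerebellum, 778 and 981.5 CPM in the anterior and 1745 and 2055 CPM in the posterior pituitary. The anterior libraries did not overlap with the others (cerebellum minus anterior 1.24 ± 0.26, edgeR adjusted p = 0.014; 1.08 and 0.14 without WT anterior replicate 1, and 1.21 and 0.075 with the length offset). Anterior against posterior did not pass (−1.11 ± 0.26, edgeR adjusted p = 0.078), but was called by DESeq2 (7e-05), without the count filter (0.0056) and without WT posterior replicate 1 (−1.22, 0.02). Tgfbr2 was level, at 396 and 415, 373 and 436, and 373 and 443 CPM in the 3 tissues, with differences of 0.00, −0.01 and −0.01, each ± 0.24. Eng was at 609 and 1117, 534 and 594, and 1334 and 1002 CPM, and no difference passed, with −1.05 ± 0.31 between anterior and posterior the farthest from 0 (edgeR adjusted p = 0.16; called by DESeq2 at 0.011 and without the filter at 0.016).

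In stabilized ECs of the sorted tissues 0 receptors were called. Acvrl1 was at 219 and 265 CPM in the cerebellum, below both WT libraries (−0.43 ± 0.30), at 94.8 and 128 CPM in the anterior pituitary (0.48 ± 0.30), and at 203 and 165 CPM in the posterior pituitary, below both WT libraries (−0.84 ± 0.31, edgeR adjusted p = 0.24). Bmpr2 was at 2489 and 2719 CPM in the cerebellum, 889.9 and 922 CPM in the anterior and 906 and 1226 CPM in the posterior pituitary, where WT had 1745 and 2055 CPM (−0.83 ± 0.26, edgeR adjusted p = 0.16). In that tissue both BMP receptors thus lay below WT without overlap. Tgfbr2 went the other way in the anterior pituitary, from 373 and 436 to 714 and 709.8 CPM (0.82 ± 0.24, edgeR adjusted p = 0.29), and lay at 470.1 and 359 CPM in stabilized cerebellum and 367.5 and 413 CPM in stabilized posterior pituitary ECs. Eng had 589.7 and 494, 598 and 519.9, and 855 and 1012 CPM in the 3 stabilized tissues, with differences of −0.67 ± 0.30 in the cerebellum and −0.32 ± 0.30 in the posterior pituitary.

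Over all 10 genes the stabilized anterior pituitary had 0 calls (0.441% of genes were called higher and 0.0167% lower), with 3 genes at an unadjusted p under 0.05 in edgeR and 1 called by DESeq2 (Smad6, −2.24). Of all genes 6.99% lay under that unadjusted p, and DESeq2 called 591, where edgeR called 82. The stabilized posterior pituitary likewise had 0 calls (1.25% of genes were called higher and 0.541% lower), with 4 genes at an unadjusted p under 0.05 and 1 called by DESeq2 (Smad7, −1.16). There 12.9% of all genes lay under that unadjusted p, and DESeq2 called 1395, where edgeR called 321. The median log2 differences of the 10 genes were −0.41, −0.11 and −0.69 in the cerebellum, anterior and posterior pituitary, and those of all genes −0.08, 0.06 and 0.01. The 10 endothelial markers summed to 12000 and 13100 CPM in WT and 6180 and 6820 CPM in stabilized posterior pituitary ECs (median −0.57, 2 of 10 called lower), and scaled to them Acvrl1 and Bmpr2 differed by −0.27 and −0.28 there. In the same libraries the 8 microglial markers went from 64.7 and 58.1 to 733 and 538 CPM (3 called higher) and the macrophage and leukocyte markers from 2.40 and 5.27 to 392 and 303 CPM (2 called higher), and in the anterior pituitary they went from 50.4 and 28.3 to 269 and 573 CPM (1 called) and from 117 and 123 to 353 and 497 CPM (2 called). Their part in the values of the 10 genes was not tested.

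Smad1, which carries the BMP signal to the nucleus, was highest in the anterior pituitary. In WT ECs it was at 69.3 and 72.7 CPM in the cerebellum, 130.0 and 184 CPM in the anterior and 98.3 and 46.2 CPM in the posterior pituitary. The anterior libraries lay above all others without passing the test (cerebellum minus anterior −1.15 ± 0.35, edgeR adjusted p = 0.091; anterior minus posterior 1.12 ± 0.35, 0.20; 1.77 and 0.011 without WT posterior replicate 1). DESeq2 called both (0.02 and 0.036), as did edgeR without the filter (0.023 and 0.048). Stabilized ECs had 115 and 80.2, 154 and 154, and 82.1 and 79.1 CPM, within 0.46 log2 units of WT in each tissue.

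The inhibitory SMADs lay lower in stabilized than in WT ECs of each sorted tissue without passing the edgeR test. DESeq2 called 3 of these 6 differences, Smad6 in the cerebellum and the anterior pituitary (−2.24 in both, adjusted p 0.017 and 0.029) and Smad7 in the posterior pituitary (−1.16, 1.2e-05). Over all genes it called 967, 591 and 1395 in stabilized cerebellum, anterior and posterior pituitary ECs, where edgeR called 116, 82 and 321. Smad7, a brake on TGF-beta and BMP receptors alike, was at 64.6 and 72.5, 36.7 and 38.85, and 88.2 and 100.4 CPM in WT cerebellum, anterior and posterior pituitary ECs and at 54.0 and 50.8, 29.4 and 25.0, and 39.35 and 44.4 CPM in stabilized ECs. The genotypes did not overlap in any of the 3 tissues, and the difference was −0.39 ± 0.28, −0.47 ± 0.28 and −1.17 ± 0.29 (edgeR adjusted p = 0.062 in the posterior pituitary). Scaled to the endothelial markers the posterior value was −0.62. Between the WT lobes neither inhibitory SMAD was called in the main edgeR fit. DESeq2 called Smad7 (anterior minus posterior −1.31, adjusted p 3.6e-07) and Smad6 (−2.37, 0.0075), and edgeR with the length offset called Smad7 (−3.08, 0.02). Without WT posterior replicate 1 the Smad7 value was −1.4. Cerebellum against anterior pituitary Smad7 was called with marker scaling (1.31, edgeR adjusted p 0.024). Smad6, which acts mainly on BMP receptors, was at 22.7 and 26.0, 8.14 and 6.10, and 49.8 and 24.15 CPM in WT and at 5.60 and 4.46, 2.46 and 0.552, and 15.05 and 15.6 CPM in stabilized ECs. It too did not overlap, with differences of −2.28 ± 0.76, −2.23 ± 0.76 and −1.27 ± 0.73 (edgeR adjusted p = 0.32, 0.45 and 0.47), but its effective length ranged from 31.0 to 3072 bases between libraries, and the sign of its WT difference between cerebellum and anterior pituitary (1.78) turned to −1.07 with a length offset.

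Of the targets, Id1 was called in 1 comparison of sorted WT tissues and Id3 in none, and neither was called between genotypes. Id1 was at 226.5 and 160.1 CPM in WT cerebellum, 82.9 and 61.0 CPM in anterior and 176 and 231 CPM in posterior pituitary ECs, and the anterior libraries were the lowest (cerebellum minus anterior 1.43 ± 0.37, edgeR adjusted p = 0.041). That call was lost without WT cerebellum replicate 1 (1.14, adjusted p 0.19), WT anterior replicate 1 (1.66, 0.073), WT anterior replicate 2 (1.23, 0.25) or with the length offset (1.59, 0.088). Between the lobes Id1 was called by DESeq2 (−1.49, 0.0067), without the filter (0.0012) and without WT posterior replicate 1 (−1.68, 0.027). In stabilized ECs Id1 was at 102 and 130.0, 82.7 and 40.03, and 115 and 162 CPM, below WT without overlap in the cerebellum and the posterior pituitary (−0.74 ± 0.36 and −0.55 ± 0.36, edgeR adjusted p = 0.53 in the cerebellum). Id3 was at 631 and 493, 464.5 and 392, and 691 and 593 CPM in WT and at 654 and 538, 453 and 301, and 698 and 854 CPM in stabilized ECs, with no call between tissues or genotypes of the sorted ECs.

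**Figure D3:**
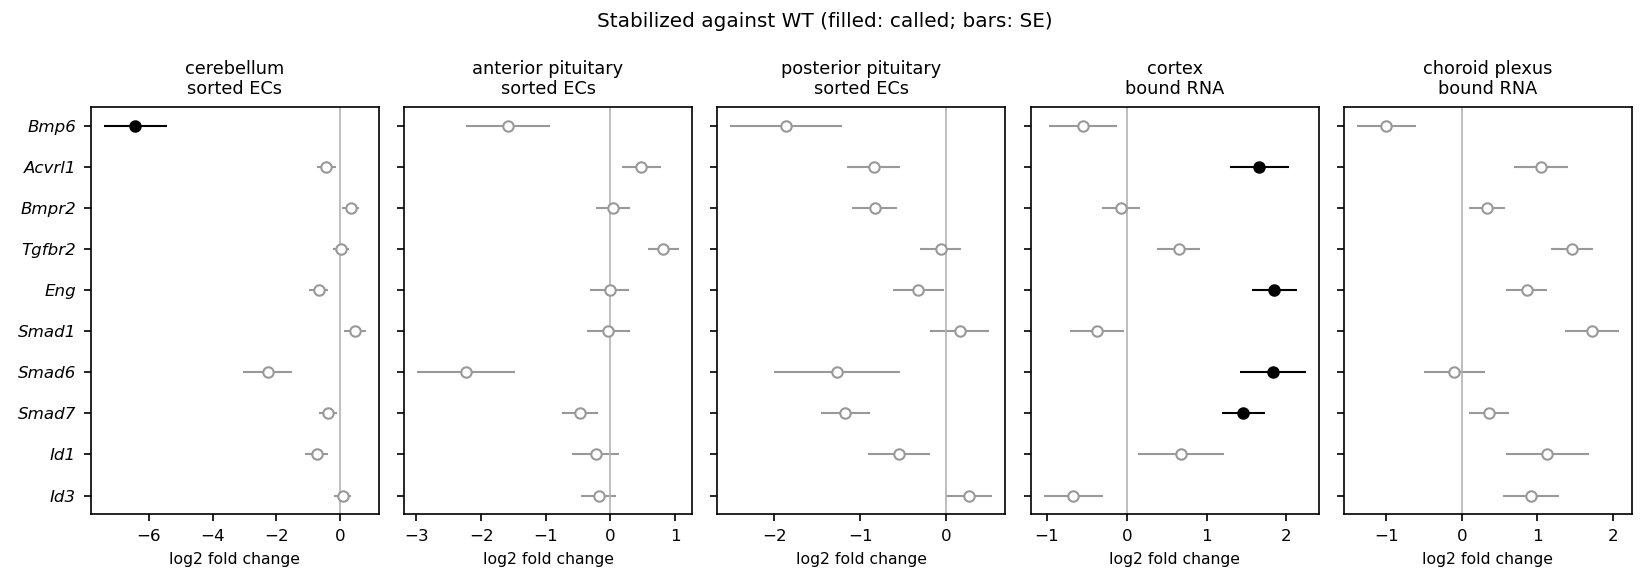
Log2 difference of stabilized minus WT for the 10 genes in the 3 sorted EC sources and in cortex and choroid plexus bound RNA, with bars of 1 SE; filled points were called, and the panels have different scales. The filled points are Bmp6 in the cerebellum, left of 0, and Acvrl1, Eng, Smad6 and Smad7 in cortex bound RNA, right of 0.

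In bound RNA of WT mice 5 of 10 genes differed between cortex and choroid plexus, 2 higher and 3 lower in the cortex, where 29.7% of 16775 genes were called in either direction. Smad1 was at 63.4 and 46.6 CPM in the cortex and 8.82 and 6.76 CPM in the choroid plexus, 7.05-fold apart (2.82 ± 0.37, edgeR adjusted p = 0.00052). Bmpr2 was at 883 and 729 against 365 and 439.8 CPM (1.0 ± 0.24, edgeR adjusted p = 0.011), just at the 2-fold limit, and the call was lost in DESeq2 (0.93), with RLE scaling (0.93), without the count filter (0.91), with a fit of the 2 groups alone (0.99) and without WT cortex replicate 1 (0.87), WT choroid plexus replicate 1 (0.76) or WT choroid plexus replicate 2 (1.06, adjusted p 0.052). With the replicate block the Bmpr2 call was lost too. Eng was lower in the cortex, at 165 and 98.8 against 273 and 288.5 CPM (−1.09 ± 0.28, edgeR adjusted p = 0.015, and −0.82 without WT cortex replicate 2), as was Smad6, at 14.6 and 7.08 against 33.8 and 37.1 CPM (−1.71 ± 0.41, edgeR adjusted p = 0.012). Both of these were lost with the length offset (−0.24 and −0.32) and when scaled to the endothelial markers (−0.40 and −1.02), which moved the median of all genes by 0.73. Bmp6, given above, was the third gene that was lower in the cortex. Microglial (8 of 8), oligodendrocyte (4 of 4), neuronal (3 of 4) and astrocyte markers (3 of 4) were called higher in cortex bound RNA, and choroid plexus epithelium (5 of 5) and fibroblast markers (4 of 5) lower, and their part in these differences was not tested.

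**Figure D4:**
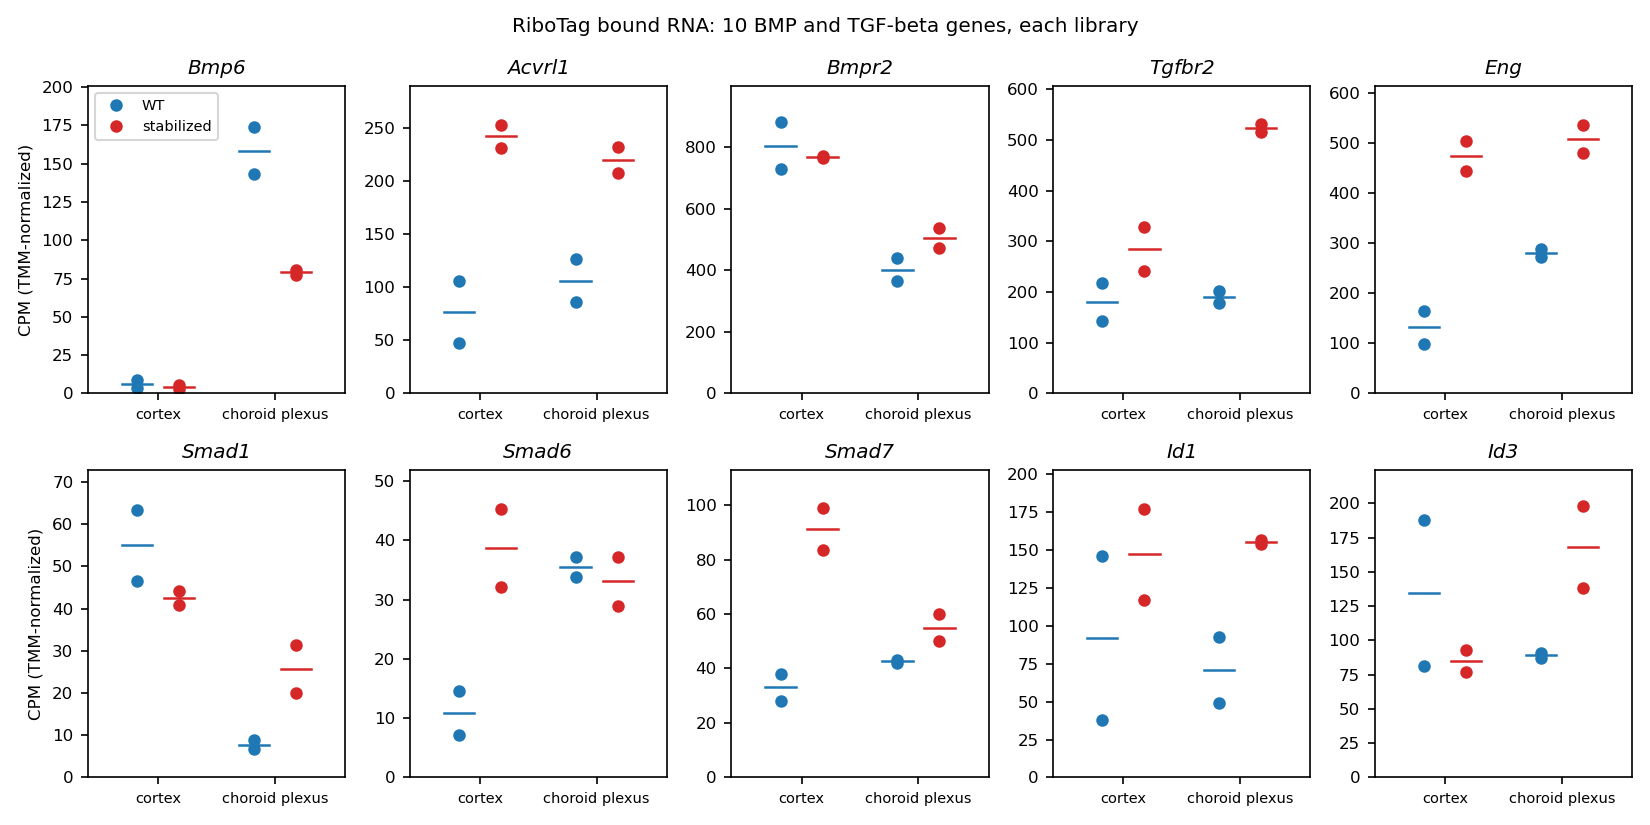
CPM of each of the 10 genes in every bound library, by tissue and genotype; each point is a library, the short lines are group means (n = 2), and each panel has its own linear axis from 0. Acvrl1, Eng, Smad6 and Smad7 lie higher in stabilized than in WT cortex, and Bmp6 is at 174 and 143 CPM in WT choroid plexus and at 3.50 and 8.57 CPM in WT cortex.

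Stabilized cortex bound RNA held more of the receptor Acvrl1, its co-receptor Eng and the inhibitory Smad6 and Smad7. Called higher were 4 of 10 genes and lower 0, with 3.65% and 2.67% of all genes called in these directions. The libraries differed too, with 14699601 and 21399125 estimated reads in WT and 7061937 and 10043096 in stabilized cortex bound RNA. The 20 most abundant genes took 50.1% and 51.4% of TPM in WT and 71.8% and 72.2% in stabilized libraries. In cortex input 11.8% of all genes were called between genotypes. The part of these differences in the 4 calls was not tested. Acvrl1 went from 106 and 47.7 CPM in WT to 231.5 and 253 CPM (1.66 ± 0.37, 3.16-fold, edgeR adjusted p = 0.031) and Eng from 165 and 98.8 to 504 and 444 CPM (1.85 ± 0.28, 3.6-fold, edgeR adjusted p = 0.0076). Smad7 went from 38.1 and 28.1 to 99.1 and 83.5 CPM (1.46 ± 0.27, 2.76-fold, edgeR adjusted p = 0.016) and Smad6 from 14.6 and 7.08 to 45.2 and 32.1 CPM (1.83 ± 0.41, 3.57-fold, edgeR adjusted p = 0.033). WT and stabilized libraries did not overlap for any of these 4 genes. Tgfbr2 was at 219 and 143.5 and at 241 and 329 CPM (0.65 ± 0.27, edgeR adjusted p = 0.19), Bmpr2 at 883 and 729 and at 773.5 and 766 CPM (−0.07 ± 0.24), and Smad1 at 63.4 and 46.6 and at 44.2 and 40.85 CPM (−0.37 ± 0.34). The target genes split, with Id1 at 146 and 37.8 and at 177 and 117 CPM (0.68 ± 0.54) and Id3 at 188 and 81.6 and at 77 and 92.7 CPM (−0.67 ± 0.37), ranges that overlapped for both. Neither passed the test, and 1 WT library decided each value: Id1 was called without WT replicate 1 (1.96, adjusted p 0.013) and Id3 without WT replicate 2 (−1.12, 0.035).

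These 4 calls moved together with the endothelial markers. The 10 markers summed to 1400 and 720 CPM in WT and 1710 and 1820 CPM in stabilized cortex bound RNA (median log2 difference 0.82, 10 of 10 above 0, 2 called higher), while the neuronal markers went from 1570 and 2110 to 842 and 811 CPM, the oligodendrocyte markers from 1700 and 1850 to 668 and 824 CPM and the microglial markers from 4970 and 3780 to 4000 and 3710 CPM. Scaled to the endothelial markers, which moved the median of all genes to −1.21, Acvrl1, Eng, Smad6 and Smad7 differed by 0.47, 0.64, 0.64 and 0.25 and all 4 calls were lost (adjusted p 0.31, 0.13, 0.28 and 0.57), whereas Id3 (−1.86), Smad1 (−1.59), Bmp6 (−1.82) and Bmpr2 (−1.29) were called lower. Only Eng kept its call without each of the 4 libraries in turn. Smad6 lost it without WT replicate 2 (1.42), stabilized replicate 1 (1.55) or stabilized replicate 2 (2.09), Acvrl1 without stabilized replicate 1 (1.71) or 2 (1.62), and Smad7 without stabilized replicate 1 (1.31). With the length offset Acvrl1 was at 1.52 (adjusted p 0.14) and Smad6 turned to −1.36 (0.68).

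In stabilized choroid plexus bound RNA 0 of 10 genes were called (0.656% of genes were called higher and 0.197% lower), with 6 at an unadjusted p under 0.05 in edgeR and 2 called by DESeq2 (Smad1, 1.76, and Tgfbr2, 1.49). Of all genes 13.9% lay under that unadjusted p, and DESeq2 called 652, where edgeR called 143. Tgfbr2 went from 178 and 203 to 516 and 532 CPM (1.46 ± 0.28, edgeR adjusted p = 0.052; called with RLE scaling at 1.49 and 0.037, without the filter at 1.49 and 7.8e-05, and in a fit of the 2 groups alone at 1.55 and 0.0064) and Smad1 from 8.82 and 6.76 to 31.4 and 19.95 CPM (1.72 ± 0.36, 0.074; 2.03 and 0.041 without stabilized replicate 2). Acvrl1 went from 86.0 and 126 to 208 and 233 CPM (1.05 ± 0.36, 0.24), Eng from 273 and 288.5 to 481 and 537 CPM (0.86 ± 0.27, 0.21), Id1 from 49.4 and 92.9 to 154 and 157 CPM (1.13 ± 0.55, 0.40) and Id3 from 87.1 and 90.8 to 138 and 198 CPM (0.92 ± 0.37, 0.32). Stabilized libraries lay above WT without overlap for all 6 of these genes, and for Bmpr2 (537 and 472 against 365 and 439.8 CPM) and Smad7 (50.1 and 59.8 against 43.3 and 42.1 CPM). This describes the values, without the share of all genes that lie so. Smad6 overlapped, at 29.0 and 37.3 against 33.8 and 37.1 CPM. The endothelial markers lay higher too, going from 1640 and 2110 to 2830 and 2440 CPM (median 0.68), and scaled to them only Bmp6 was called, lower by 1.77 on the log2 scale (adjusted p 0.048).

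A difference in response between tissues was tested as an interaction, and 0 of 10 genes were called in any of 4 such tests in edgeR, where 0.927% of genes were called for posterior pituitary against cerebellum, 0.519% for anterior pituitary against cerebellum, 0.128% for posterior against anterior pituitary and 2.15% for choroid plexus against cortex. At an unadjusted p under 0.05 were 2, 2, 3 and 5 of the 10 genes, and DESeq2 called 2 (Bmp6 and Bmpr2), 1 (Bmp6), 0 and 2 (Smad1 and Id3). Of all genes 13.8%, 11.7%, 9.09% and 17.6% lay under that unadjusted p. Over all genes DESeq2 called 1360, 937, 592 and 1119, where edgeR called 166, 93, 23 and 360. The Bmp6 difference of the posterior pituitary exceeded that of the cerebellum by 4.57 ± 1.21 and that of the anterior pituitary did so by 4.85 ± 1.21, on reads of 2 and 0 in the stabilized cerebellum (edgeR adjusted p = 0.12 and 0.14). The difference from the posterior pituitary was called without WT cerebellum replicate 1 (5.34, adjusted p 0.0013) or stabilized cerebellum replicate 1 (7.76, 0.039), and that from the anterior pituitary without either of these (5.61 and 8.05) or without stabilized anterior replicate 1 or 2 (4.79 and 4.89). The difference of choroid plexus minus cortex was 2.09 ± 0.50 for Smad1 (edgeR adjusted p = 0.067) and −1.93 ± 0.57 for Smad6 (0.13; 0.64 with the length offset). Smad1 was called without WT cortex replicate 2 (2.36, adjusted p 0.03), without stabilized choroid plexus replicate 2 (2.39, 0.044) and with marker scaling (2.51, 0.044), Smad6 (−2.54, 0.034) and Eng (−1.40, 0.036) without WT cortex replicate 1, and Id3 without WT cortex replicate 2 (2.12, 0.0052). Without the count filter Smad1, Smad6 and Id3 were called.

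The genotypes were compared in the same way in GFP-negative cells and in whole-tissue input, which still holds the ECs. In GFP-negative cells 0 of 10 genes were called in the cerebellum, anterior or posterior pituitary (edgeR, beside 0.760%, 0.0408% and 0.133% of all genes), with 1 gene at an unadjusted p under 0.05 in each tissue and 2 called by DESeq2 over the 3 tissues (Acvrl1 in the anterior and Eng in the posterior pituitary, 6.02 and 5.09, adjusted p 0.047 for each). Of all genes 10.9%, 5.51% and 9.94% lay under that unadjusted p, and DESeq2 called 1242, 388 and 1068. Id3 in the posterior pituitary differed by 1.23, and by 2.69 without WT replicate 1. Bmp6 in the GFP-negative cerebellum was at 62.65 and 55.9 CPM in WT and 26.3 and 2.94 CPM in stabilized mice, and was called lower without stabilized replicate 1 (−4.34, adjusted p 0.018). In whole-tissue input 0 of 10 were called in the cortex or choroid plexus (edgeR, beside 11.8% and 0.106% of all genes), with 5 and 2 genes at an unadjusted p under 0.05 and 1 called by DESeq2. Of all genes 38.2% and 7.41% lay under that unadjusted p, and DESeq2 called 1826 and 76. Cortex input Bmpr2 went from 403 and 484 to 236 and 254 CPM (−0.85 ± 0.13, edgeR adjusted p = 0.0036) and Id3 from 12.9 and 15.4 to 7.60 and 8.70 CPM (−0.79 ± 0.14, 0.0069), both short of 2-fold. With the length offset Bmpr2 was called lower there (−1.59, 0.001).

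The wider pathway was followed with 50 further genes, of which 47 were tested in ECs and in bound RNA. The shares of all genes called higher and lower were 0.0670% and 0.581% in stabilized cerebellum ECs, 1.25% and 0.541% in the posterior pituitary, 3.65% and 2.67% in cortex bound RNA and 0.656% and 0.197% in choroid plexus bound RNA. Over all genes DESeq2 called 591 in the stabilized anterior and 1395 in the posterior pituitary, where edgeR called 82 and 321. In the anterior pituitary 6.99% of all genes had an unadjusted p under 0.05 in edgeR. In stabilized cerebellum ECs 0 of these rose and 2 fell, each to at most 1 read per library: the activin receptor Acvr1b from 36 and 71 to 0 and 0 reads, and Ltbp3, a binding protein of latent TGF-beta, from 91 and 163 to 1 and 1. In the stabilized anterior pituitary 0 were called in edgeR, with 5 at an unadjusted p under 0.05, 2 higher in DESeq2, 2 higher and 1 lower without the count filter, and 1 higher with the length offset or the replicate block. In the stabilized posterior pituitary 2 rose and 0 fell (6 and 2 in DESeq2, 6 and 3 without the filter, 4 and 0 with marker scaling, 3 and 1 with the block, 0 and 0 with the length offset, and 1 and 1 with only the groups compared): Ccn2, a matricellular target of TGF-beta, from 158 and 149 to 847 and 978 CPM (2.57 ± 0.58, edgeR adjusted p = 0.048) and the type I receptor Tgfbr1 from 67.0 and 60.8 to 267 and 166 CPM (1.76 ± 0.34, 0.022), in the libraries where 3 of 8 microglial and 2 of 6 macrophage and leukocyte markers were called higher, and the part of these cells was not tested. In choroid plexus bound RNA Ccn2 was also the single gene called, from 93.1 and 120 to 727 and 486 CPM (2.51 ± 0.44, edgeR adjusted p = 0.037). In cortex bound RNA 1 rose and 2 fell (0 and 17 of 47 when scaled to the endothelial markers, and 1 and 5 in the choroid plexus): the target Atoh8 from 1.15 and 0.257 to 7.13 and 6.11 CPM (3.24 ± 0.79, 0.043), the target Id4 from 52.9 and 76.4 to 12.9 and 18.8 CPM (−2.02 ± 0.37, 0.015) and the type II receptor Acvr2a from 51.5 and 54.0 to 13.4 and 14.5 CPM (−1.92 ± 0.37, 0.019). Each of these 6 calls outside the cerebellum was lost when single libraries were left out: Ccn2 without WT posterior pituitary replicate 2 (2.52) or, in the choroid plexus, without WT or stabilized replicate 1 (2.35 and 2.25), Tgfbr1 without WT posterior replicate 2 (1.69) or stabilized posterior replicate 1 (1.38), Id4 without stabilized cortex replicate 1 (−1.83), and Atoh8 and Acvr2a without WT cortex replicate 2 (2.54 and −1.86), stabilized replicate 1 (3.13 and −1.90) or stabilized replicate 2 (3.38 and −1.96). The cerebellum calls were lost in a fit of the 2 cerebellum groups alone (adjusted p 0.43 for each), and the calls in other tissues with the length offset (adjusted p 0.06 to 0.11).

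The pathway genes were compared between WT tissues in the same way, beside 5.26%, 4.40% and 0.994% of all genes called in the 3 sorted comparisons. Over all genes DESeq2 called 2006, 1926 and 1281 in these, where edgeR called 942, 788 and 178. Against the anterior pituitary 2 of 47 were higher in cerebellum ECs, Tgfb2 at 282 and 163 against 5.53 and 1.85 CPM and Ltbp4 at 465 and 653 against 26.9 and 40.6 CPM, and 8 were lower, led by the activin subunit Inhbb (0 and 2.31 against 207 and 213 CPM), Tgfbi and Ltbp1 (14.4 and 18.3 against 536 and 557 CPM). Against the posterior pituitary 2 were higher, the BMP antagonist Nog (412 and 193 reads against 0 and 0) and the receptor Acvr1 (90.8 and 69.2 against 18.9 and 30.7 CPM), and 7 were lower, led by Inhbb, Acvr1b and Ltbp1. Nog and Acvr1 were not called with the length offset (adjusted p 0.057 and 0.5), with only the groups compared (0.11 and 0.12) or without WT posterior replicate 1 (0.075 and 0.11), and Nog was lost without WT posterior replicate 2 (0.083) and Acvr1 without WT cerebellum replicate 1 or 2 (1.47 and 1.88, 0.24 and 0.052). The counts against the posterior pituitary were 0 and 6 with the length offset, 0 and 3 with only the groups compared, 4 and 4 with marker scaling and 4 and 11 in DESeq2. Between the lobes Ltbp4 alone was called in the edgeR fit of all GFP-positive libraries (0 higher and 1 lower in the anterior lobe, against 4 and 5 in DESeq2, 2 and 4 without the filter and 0 and 2 with the block), at 26.9 and 40.6 CPM in the anterior and 240 and 282 CPM in the posterior pituitary. Between cortex and choroid plexus bound RNA 7 were higher and 9 lower in the cortex (15 and 8 when scaled to the endothelial markers), in a comparison where 29.7% of all genes were called, with Tgfbr1 at 685 and 446 against 58.9 and 58.4 CPM and the BMP antagonist Sostdc1 at 0 and 1.08 against 493 and 348 CPM.

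Across fractions 3 of 48 pathway genes were EC-enriched and 8 EC-depleted in the cerebellum, 11 and 5 in the anterior and 10 and 4 in the posterior pituitary, beside 4.46% and 6.89%, 5.46% and 5.87%, and 7.07% and 7.45% of all genes. With the replicate number as a block the counts were 3 and 7, 8 and 4, and 8 and 4. The type I receptor Bmpr1b was among the depleted in each tissue and Bmpr1a in both pituitary lobes (−4.71 and −5.28), although Bmpr1b in the cerebellum was not called with the block (adjusted p 0.055). Ltbp4 (5.45), Tgfb1 (3.02) and the ubiquitin ligase Smurf2 (1.65) were the enriched genes of the cerebellum, and Bmp2 was enriched in both pituitary lobes, but not with the block (adjusted p 0.068 and 0.055). In the RiboTag libraries 6 of 48 were higher and 1 lower in cortex bound RNA than in input, and 4 and 3 in the choroid plexus, beside 7.46% and 4.18%, and 8.67% and 6.64%, of all genes, with Ltbp4 (4.06 and 2.63) and Tgfb1 (4.05 and 2.58) higher in both.

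Accessible chromatin was present at the start sites of nearly all 10 genes in every sorted EC source. A peak within 1 kb of the annotated start in both replicates, with a fold enrichment above 2 and a −log10 q above 2, was found for 9 of 10 genes in WT and 10 in stabilized cerebellum ECs, 10 and 9 in the anterior and 9 and 9 in the posterior pituitary, where 46.9% and 50.1%, 54.0% and 54.4%, and 47.2% and 50.5% of all protein-coding genes had such a peak. The exception was always Acvrl1, whose start had a peak in WT anterior pituitary (fold enrichment 3.31 and 3.71) and stabilized cerebellum ECs (4.29 and 2.93). The Bmp6 start was accessible in all 6 groups, also in stabilized cerebellum ECs (6.21 and 7.80, against 5.60 and 3.64 in WT), where its RNA was at 2 and 0 reads.

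The peaks near each gene were then compared between genotypes. Gained peaks, present in both stabilized and in neither WT library of a tissue, lay within 100 kb of 7 of the 10 genes in the cerebellum, 6 in the anterior and 10 in the posterior pituitary. The shares among all protein-coding genes were 46.1%, 27.4% and 52.2%, and among genes called EC-enriched in that tissue 72.0%, 45.6% and 77.6%. The members' windows were longer than those of all genes, with a median of 248.6 against 217.4 kb. The gained peaks numbered 20, 8 and 40, of which 5, 2 and 11 lay in the body of the gene itself and 13, 4 and 21 had it as the nearest protein-coding start. Peaks lost on stabilization lay near 0, 4 and 0 of the genes (6.57%, 20.5% and 4.67% of all protein-coding genes). The number of peaks per library was higher in stabilized than in WT ECs of 2 tissues. It went from 26394 and 24020 (WT) to 33514 and 31669 (stabilized) in the cerebellum and from 21050 and 20634 to 28926 and 38583 in the posterior pituitary. In the anterior pituitary the genotypes overlapped, at 36860 and 45040 (WT) and 40071 and 42621 (stabilized). The part of these numbers in the counts of gained peaks was not tested.

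**Figure D5:**
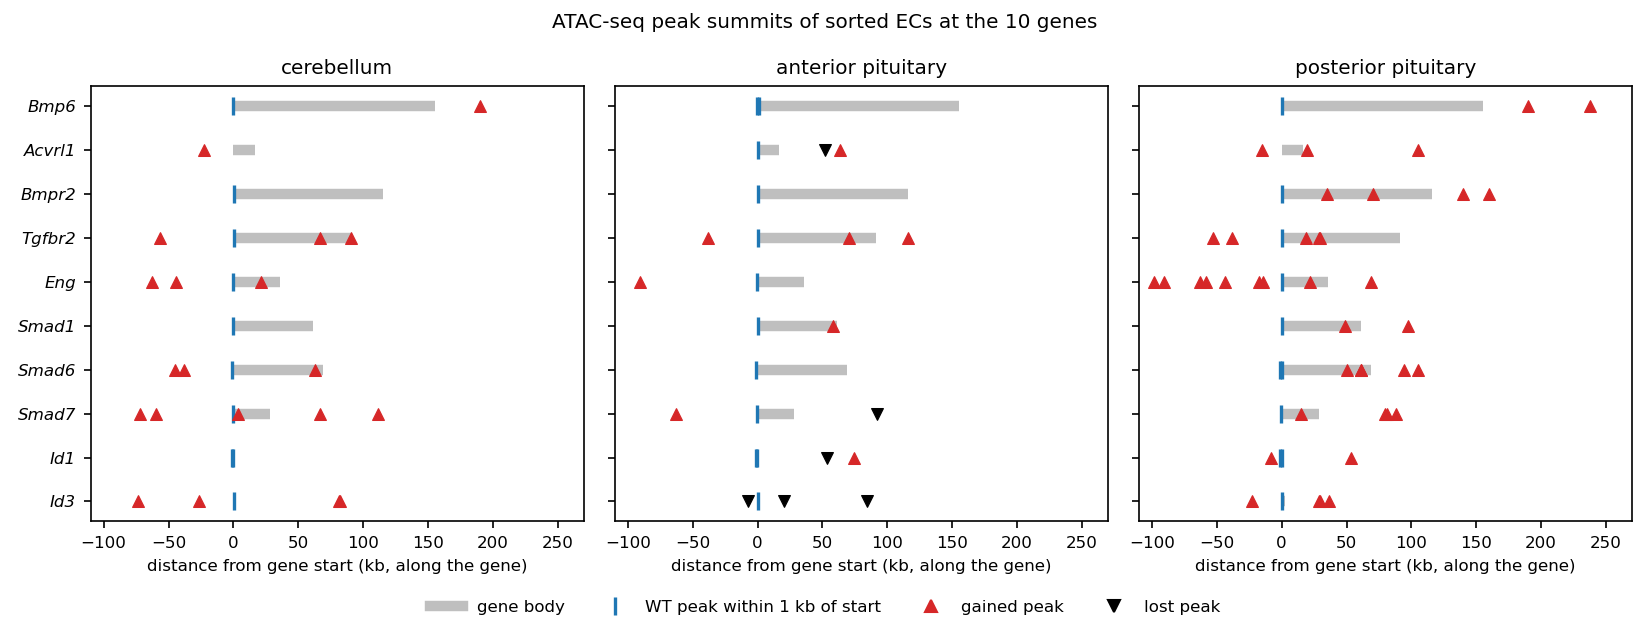
ATAC-seq peaks at the 10 genes in each tissue, by distance of the summit from the gene start in kb: triangles are peaks gained or lost within 100 kb of the gene body, ticks are WT peaks within 1 kb of the start, and grey bars are gene bodies. The posterior pituitary has 40 gained and 0 lost peaks, the cerebellum 20 and 0, and the anterior pituitary 8 and 6.

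Some of the gained peaks were shared by the cerebellum and the posterior pituitary. The intronic Eng region printed above was gained in the cerebellum (fold enrichment 2.64 and 3.09) and in the posterior pituitary (4.72 and 4.60), and 2 upstream sites were gained in the same tissues, at −43885 bp (7.88 and 7.56; 4.67 and 5.85) and −62981 bp (4.02 and 3.01; 4.21 and 3.16), although St6galnac6 and St6galnac4 start closer to them. A site 189822 bp downstream of the Bmp6 start, nearest to Txndc5, was gained in both as well (5.98 and 5.24; 4.78 and 4.70). By peaks within 100 kb Eng had the most gained in the posterior pituitary, 9, although other genes start closer to several of them. Tgfbr2 had 5, all with Tgfbr2 as the nearest start, including the intronic region printed above at 29846 bp (7.53 and 7.55). Among the 40 gained peaks of the posterior pituitary near these genes the highest lay 139446 bp downstream of the Bmpr2 start (9.92 and 8.25), nearest to Fam117b. A peak 53417 bp downstream of the Id1 start was lost in the anterior pituitary (2.37 and 2.97) and an overlapping peak gained in the posterior pituitary (2.81 and 2.60).

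The TCF/LEF letters ATCAAAG or TTCAAAG, sought on both strands within 100 bases of the summit, were in 3 of the 40 gained posterior pituitary peaks (near Tgfbr2, Smad1 and Id1, where Mmaa and Cox4i2 start closer to the Smad1 and Id1 peaks), 0 of 20 in the cerebellum and 0 of 8 in the anterior pituitary, against 15% of 7950, 12.9% of 5284 and 21.6% of 2828 gained peaks in all. TTCAAAG was also in 1 lost peak of the anterior pituitary, 20213 bp from the Id3 start and nearest to E2f2, and in the Smad1 start peak of stabilized posterior pituitary ECs (summit at 903 bp), which held the longer BMP-SMAD element too. A BMP-SMAD element, GGCGCC in each case, was in 3 of 20 gained cerebellum peaks and 3 of 40 gained posterior pituitary peaks, the Eng region among both, against 5.51% and 4.3% of all gained peaks. The Id1 peak printed above held both BMP-SMAD motifs in every group, at a fold enrichment of 5.65 and 6.21 (WT) and 7.18 and 7.22 (stabilized) in the cerebellum, 5.18 and 9.14 and then 8.28 and 8.86 in the anterior, and 5.07 and 5.41 and then 6.48 and 7.36 in the posterior pituitary. Either motif was in 13.7%, 11.2% and 15.9% of all WT peaks of the 3 tissues. In the table of RefSeq promoters, 300 bases each, 7 of the genes were examined, and GGCGCC was found in that of Bmpr2 alone, 105 bases before RefSeq's start (position −105), which lies inside the gene by the annotation used above, as in 11.9% of 32851 promoters. The longer element, GGCGNC and GTCT spaced by 5 bases, was in none of the 7 and in 0.244% of all promoters. These matches are descriptions of sequence and say nothing of binding.

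Genes whose level followed each of the 10 most closely were sought over the 12 group means of the sorted libraries. Among 16320 protein-coding genes the nearest by Pearson's r of log2 CPM were Cd34 and She for Acvrl1 (0.985 for both), Cav2 and Adgre5 for Eng (0.988 and 0.986), Nostrin and Flt1 for Bmpr2 (0.985 and 0.981) and Cavin2 and Clec2d for Tgfbr2 (0.99 and 0.988). Rras was the nearest gene for both Id1 (0.987) and Id3 (0.988). The likeness was lower for Smad1 (Prcp, 0.957), Smad7 (Amotl2, 0.979), Bmp6 (Cmip, 0.925) and Smad6 (Gm21970, 0.917), and the 12 means share the split into fractions.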

How the data were processed

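The authors quantified single-end reads of 75 cycles with Salmon 0.10.2 against Ensembl transcripts of GRCm38 and deposited, per library and transcript, estimated counts and TPM. The authors called ATAC-seq peaks in each library alone with MACS2 2.1.1.20160309 after alignment with Bowtie2 2.3.2 and deposited each peak's fold enrichment (a ratio over background) and −log10 q. The library kit does not mark strand, so reads of overlapping genes cannot be told apart.

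Transcripts were summed to genes with GENCODE M21, and 0.0588% to 0.385% of reads matched no gene of it. Estimated counts were rounded and tested in R 4.3.3 with edgeR 4.0.16 (TMM, filterByExpr, quasi-likelihood test, Benjamini-Hochberg over all genes tested), with 1 coefficient per group, over the 12 GFP-positive, 12 GFP-negative, 24 sorted, 8 bound, 8 input or 16 RiboTag libraries. SE is the log2 difference divided by the square root of F. The script was tested on simulated data. DESeq2 1.42.0, RLE scaling, no filter, effective-length offsets, the replicate block, fits of the compared groups alone and leaving out each library were alternatives, as was scaling to 10 endothelial markers, chosen after seeing the data. Python 3.11.15 and pandas 2.3.3 served for sums and peaks. The members and lists were chosen with earlier results of these data known, and 1 gene of the pathway list is not reported here. All members were named, with up to 3 called pathway genes per direction and comparison and the 2 genes most like each member. Gained and lost peaks needed 1 bp of overlap to count as shared.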

Additional observations from a re-analysis of the deposited data

Results flagged for a closer look

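In 5 cases the response of a pathway gene to beta-catenin stabilization differed between tissues by edgeR's interaction test, with 47 genes tested. Of all genes 0.927% were called for the posterior and 0.519% for the anterior pituitary against the cerebellum. DESeq2 called 6 pathway genes higher and 1 lower in the first and 3 and 0 in the second, and edgeR without the filter 8 and 2, and 3 and 1. Crim1, a regulator of BMP ligands, went from 206 and 153 to 328 and 336 CPM in cerebellum ECs and from 516 and 792 to 254 and 324 CPM in posterior pituitary ECs, a difference of −2.06 between these responses (edgeR adjusted p = 0.028). This was lost with the length offset (−2.18, 0.071), scaling to endothelial markers (−1.79, 0.1) or only the groups compared (−2.04, 0.1), and without WT cerebellum replicate 2 (−1.87, 0.052) or stabilized posterior replicate 1 (−1.90, 0.085). The other cases rest on genes with at most 1 read per stabilized cerebellum library, so the fitted differences are not bounds. They were 7.85 for Acvr1b and 5.99 for Ltbp3 in the posterior pituitary against the cerebellum (edgeR adjusted p = 0.025 and 0.0045), and 7.8 for Acvr1b and 6.96 for Ltbp3 in the anterior pituitary against the cerebellum (0.032 and 0.0015). Acvr1b was lost in both with the length offset (0.052 and 0.066) or only the groups compared (0.12 and 0.13), and in the anterior pituitary against the cerebellum also with marker scaling (8.05, 0.058) or without WT anterior replicate 1 or 2 (7.6 and 7.96, 0.06 and 0.055). The 2 sets of comparisons share the cerebellum libraries.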

How the results depend on the processing

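Of the 47 calls on the 10 genes, 46 were kept in DESeq2, 46 with RLE scaling, 45 without the filter, 34 with the length offset, 40 in fits of the compared groups alone, and 9 of 15 with endothelial marker scaling. The replicate block kept 46; the numbers were not taken to pair the genotypes (correlations of −0.21 to 0.021), while same-numbered fractions, or bound and input RNA, which the methods describe as taken from 1 preparation, correlated at −0.00378 to 0.143, over 0.1 in 1 of 10 pairs. Only Bmpr2 between cortex and choroid plexus lost its call with the block (1.0), and Bmp6 gained one between anterior pituitary and cerebellum and between the lobes. In the choroid plexus inputs 17 genes were called over all genes, 0 with the block and 4 with a crossed block. The cause of the changes below was not tested. Numbers of members called are given where they moved, so a gained and a lost call can cancel, and not every lost call is named. Between the lobes the length offset lost Acvrl1 and gained Smad7 (−3.08, adjusted p 0.02), and a fit of the 2 lobes alone called Bmp6 (−3.02, 0.015). Cerebellum against anterior pituitary, 3: DESeq2 5, no filter 5, length offset 0, without 1 library 1 to 4. Anterior against posterior pituitary, 1: DESeq2 8, no filter 6, block 2, without 1 library 0 to 6. Stabilized cerebellum, 1: DESeq2 2, length offset 0, compared groups alone 0. Stabilized anterior pituitary, 0: DESeq2 1. Stabilized posterior pituitary, 0: DESeq2 1, no filter 1. Response of posterior pituitary or anterior pituitary minus cerebellum, 0: DESeq2 2 and 1, no filter 1 and 1, without 1 library 0 to 1. GFP-negative cells, 0: DESeq2 2, without 1 library 0 to 1. Cortex against choroid plexus, 5: length offset 3. There Id3 was called with marker scaling (1.27, adjusted p 0.027), and calls were gained by Id3 without WT cortex replicate 2 (1.02) and by Acvrl1 without WT cortex replicate 1 (−1.15). Stabilized cortex bound, 4: length offset 2, without 1 library 1 to 5. Stabilized choroid plexus bound, 0: DESeq2 2, RLE 1, no filter 4, marker scaling 1, compared groups alone 1, without 1 library 0 to 1. Response of choroid plexus minus cortex, 0: DESeq2 2, no filter 3, marker scaling 1, without 1 library 0 to 2. Inputs, 0: DESeq2 1, no filter 1, length offset 2, without 1 library 0 to 1. Fraction comparisons moved from 7, 8 and 9 (cerebellum, anterior, posterior) to 6 to 7, 6 to 7 and 7 to 10 without 1 library, and cortex bound against input gained Smad1 and Bmp6 without WT bound replicate 2. With stricter peaks (fold enrichment 4, −log10 q 5), gained cerebellum peaks went from 20 to 12, and lost peaks from 0, 6 and 0 to 1, 1 and 1, near 1 gene each. Without 1 ATAC-seq library, fewer peaks have to be absent or present: gained peaks were 33 to 45, 23 to 37 and 57 to 87 near 9 to 10 genes in the cerebellum and 8 to 10 in the anterior pituitary, and lost peaks 5 to 7, 26 to 29 and 2 to 6 near 4 to 5, 9 to 9 and 2 to 4 genes. Signs turned, with the length offset, for Smad6 (cerebellum against anterior pituitary −1.07, cortex bound −1.36, choroid plexus minus cortex 0.64, cortex input −3.89), Acvrl1 (anterior pituitary minus cerebellum response −0.42) and Id3 (posterior GFP-negative −0.47), and in GFP-negative cells when 1 library was left out, for Acvrl1 and Tgfbr2 in the cerebellum (−5.44 to 0.03 and −3.56 to 0.06; WT replicate 2 and stabilized replicate 2) and for Smad6 in the posterior pituitary (−2.44 to 7.33; WT replicate 1). Over all genes DESeq2 called more than 1.5 times as many in 19 of 23 comparisons, as in stabilized cerebellum ECs (967 against 116) and cerebellum against anterior pituitary (2006 against 942), the missing filter more in 16, the length offset fewer in 16, and fits of the compared groups alone fewer in 10 and more in 3 of 22. Depth limits the genes at 0 reads in a library, where up to 3 reads are allowed.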

Other observations

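Genes that separated WT cerebellum from pituitary ECs and were then not called between genotypes are given as values, and were chosen after their values were seen. Tgfb2, the ligand that was higher in WT cerebellum ECs, was at 5.53 and 1.85 CPM in WT and 21.4 and 84.5 CPM in stabilized anterior pituitary ECs (log2 difference 3.84 ± 0.83, edgeR adjusted p = 0.084), and at 51.1 and 8.88 and at 203 and 216 CPM in the posterior pituitary (2.8 ± 0.79, 0.11). The genotypes did not overlap in either lobe. Nog, an antagonist of BMP ligands, had 0 and 0 reads in WT and 260 and 376 reads in stabilized posterior pituitary ECs (edgeR adjusted p = 0.058), and 412 and 193 reads in WT cerebellum ECs. Inhbb, which was nearly absent from cerebellum ECs, was at 323 and 189 CPM in WT and 40.6 and 35.0 CPM in stabilized posterior pituitary ECs (−2.76 ± 1.21, edgeR adjusted p = 0.36). In cerebellum ECs Tgfb2, Nog and Inhbb differed by 0.33, 1.03 and 0.36 between genotypes, with overlapping libraries for each.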
